A study of Homo sapiens with 6 samples.

Results

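The 10 genes that encode the classical MAP kinase phosphatases (*DUSP1*, *DUSP2*, *DUSP4*, *DUSP5*, *DUSP6*, *DUSP7*, *DUSP8*, *DUSP9*, *DUSP10* and *DUSP16*) were followed in RNA-seq of HEK293T cells, a human embryonic kidney line that carries the SV40 large T antigen. The members were taken by gene symbol from the 56908 genes with a symbol, and all 10 were among the 23462 genes with at least 10 reads in total that were tested. Of the members, 6 had 50 or more reads in every library. The study asked how loss of RREB1, a zinc finger transcription factor that binds RAS-responsive elements, alters transcription of RAS-MAPK pathway genes. Total RNA was sequenced from 3 libraries of cells with a control shRNA (sh-control) and 3 libraries of cells with an shRNA against *RREB1* (sh-*RREB1*). All cells were grown in DMEM with FBS, and no treatment beyond the hairpins is named. The hairpin is designed to lower the transcript and leaves the gene in place, and its delivery for these libraries is not given in the labels. The methods of the study describe lentiviral delivery of control and *RREB1* hairpins, with neomycin selection of stable lines. The sources used here do not state whether the 3 libraries of a group came from separate cultures, so p-values measure only the spread between these libraries, which may be technical.

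The libraries held 12257054 to 33044061 reads on genes. The sh-*RREB1* replicate 3 library was the smallest, and 52.1% of its reads mapped to several places, against 3.66% to 7.63% in the other 5 libraries. *RREB1* itself (ENSG00000124782) stood at 27.1, 25.2 and 26.6 CPM (counts scaled per 1000000 reads on genes, after TMM scaling) in sh-control and at 23.7, 24.7 and 23.2 CPM in sh-*RREB1*. The groups did not overlap, but the log2 fold change was -0.14 (SE 0.13, edgeR adjusted p = 0.494), and the exact two-sided permutation p of 0.1 is the smallest that 3 against 3 libraries can give. Direction below therefore refers to the groups as labelled. Of 8 genes that mark the HEK293 line, all 8 were measured and summed to 529-593 CPM in sh-control and 813-930 CPM in sh-*RREB1*. *PAX2* was near 0, and 0 of the 8 were called by edgeR or DESeq2, with 4 at an unadjusted p below 0.05. In bulk RNA, fewer cells of a type and less RNA per cell cannot be told apart.

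MAP kinases are switched on by phosphorylation of a threonine and a tyrosine in their activation loop. MAP kinase phosphatases remove both phosphates, and a kinase-binding domain at their N terminus sets which kinases they act on. Several of the genes are themselves induced by MAP kinase signalling, so that the enzymes form a negative feedback on ERK, JNK and p38. The family is usually divided into inducible nuclear enzymes, cytoplasmic enzymes that prefer ERK, and enzymes that prefer JNK and p38.

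*DUSP7* and *DUSP8* were the 2 members called higher in sh-*RREB1* by the rule given below, and no member was called lower. An unadjusted p below 0.05 was seen in 6 of 10 members and in 34.1% of all genes. With a trend of fold change with GC content and gene length removed (described below), *DUSP8* stayed called and *DUSP7* did not. *DUSP7* was 2.11-fold and *DUSP8* 8.63-fold higher. A gene was called where the edgeR quasi-likelihood test gave a Benjamini-Hochberg adjusted p below 0.01, over all genes tested, and the absolute log2 fold change was above 1. By this rule 3.38% of all tested genes were called in either direction and 2.69% were called higher, against 2 of 10 members called higher. The median log2 fold change of the members was 0.76 (7 above 0 and 3 below 0), beside a median of 0.01 over all genes. For 7 members every sh-*RREB1* library lay above every sh-control library, as did 21.0% of all genes. For 1 member every sh-*RREB1* library lay below, as did 19.9% of all genes. In the remaining 2 members, *DUSP4* and *DUSP6*, the groups overlapped. DESeq2 called 3 members, *DUSP2* in addition to these 2, and 7.05% of all genes.

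**Figure D1:**
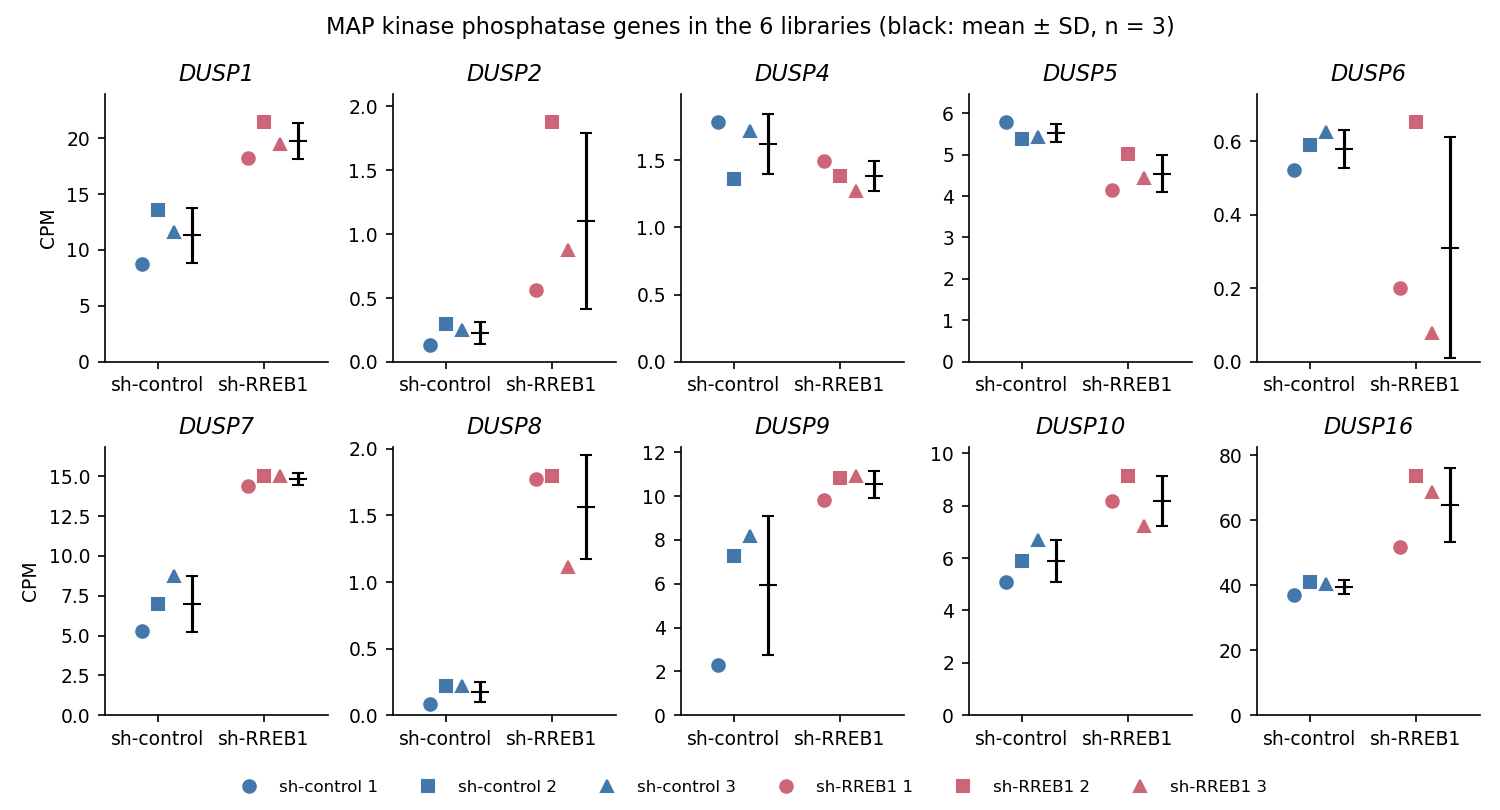
Level of each MAP kinase phosphatase gene in CPM (y axis, linear, from 0, a separate scale for each gene) in the 3 sh-control libraries (blue) and the 3 sh-*RREB1* libraries (red), with the mean and SD of each group in black (n = 3). *DUSP7* sits at 5.26-8.76 CPM in sh-control and 14.38-15.05 CPM in sh-*RREB1*, while the groups overlap in *DUSP4* and *DUSP6*.

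*DUSP8* encodes a phosphatase that prefers JNK and p38 and is known from brain and heart. Its gene (ENSG00000184545, GRCh38 11:1554051-1572271, minus strand) had 2, 6 and 7 reads in the sh-control libraries against 44, 47 and 14 in those of sh-*RREB1*. This equalled 0.0869, 0.221 and 0.218 CPM in the sh-control libraries against 1.77, 1.80 and 1.11 CPM in those of sh-*RREB1*. Every sh-*RREB1* library was at least several times above every sh-control library, with sh-control replicate 1 the lowest and sh-*RREB1* replicate 3 the lowest of its group. The mean was 0.175 ± 0.0766 CPM in sh-control and 1.56 ± 0.390 CPM in sh-*RREB1* (SD, n = 3), a log2 fold change of 3.11 (SE 0.39, 95% CI 2.23-3.99, edgeR adjusted p = 0.00326). The pooled reads, 15 against 105, gave a ratio of 9.06 after scaling to library size, with an exact 95% interval of 5.25 to 16.8 that covers counting error only. With the GC and length trend removed, the log2 fold change was 1.66 (adjusted p = 0.00593). That call held in 1 of 6 omissions of a library, that of sh-control replicate 1 (adjusted p = 0.00754). On the counts as deposited, the call held on omission of sh-control replicate 1 (adjusted p = 0.00134) or 3 (0.0088). It was lost on omission of sh-control replicate 2 (0.0279) or of any sh-*RREB1* library (0.0167, 0.0123 and 0.0187 for replicates 1, 2 and 3), and the log2 fold change stayed at 2.81 to 3.27 over the 6 omissions.

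*DUSP7* encodes a cytoplasmic phosphatase that prefers ERK. Its gene (ENSG00000164086, GRCh38 3:52048919-52056571, minus strand) stood at 5.26, 6.99 and 8.76 CPM in the sh-control libraries against 14.38, 15.05 and 14.99 CPM in those of sh-*RREB1*. The sh-*RREB1* libraries were nearly level with each other, and the sh-control libraries spread more widely, with replicate 1 the lowest. The mean was 7.002 ± 1.75 CPM in sh-control and 14.8 ± 0.371 CPM in sh-*RREB1* (SD, n = 3), a log2 fold change of 1.07 (SE 0.20, 95% CI 0.61-1.54). The adjusted p was 0.00983 by edgeR, close to the threshold, and 3e-05 by DESeq2. The call ended with the GC and length trend removed (log2 fold change 0.31, adjusted p = 0.133). No omission of a library kept the call. On omission of sh-control replicate 1 it fell under the minimum, with a log2 fold change of 0.87 at an adjusted p of 0.00426. For the other omissions the adjusted p was 0.0576 (sh-control replicate 2), 0.0114 (sh-control replicate 3), 0.0308, 0.03 and 0.0483 (sh-*RREB1* replicates 1, 2 and 3).

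The bases upstream of the start sites of these 2 genes are shown because they are the members that were called, and those of *DUSP1* because it had the highest level and shares an element with *DUSP8*. RefSeq gave promoter windows of 300 bases (250 before and 50 after a start site, GRCh38.p14) for 8 of the 10 members, 10 windows in all; *DUSP4* and *DUSP5* had none. Letters are in the direction of the gene, 5′ to 3′, over the 250 bases before the start. Capitals mark the core TGACG of the cAMP response element and the GC box GGGCGG, each on either strand.
DUSP8, chr11:1572272-1572521, minus strand: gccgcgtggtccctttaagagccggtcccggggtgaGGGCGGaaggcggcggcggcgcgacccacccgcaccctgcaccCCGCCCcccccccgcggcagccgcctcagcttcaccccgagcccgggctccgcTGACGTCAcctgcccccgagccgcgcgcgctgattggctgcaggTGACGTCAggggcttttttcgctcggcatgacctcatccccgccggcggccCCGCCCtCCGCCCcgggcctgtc
DUSP7, chr3:52056572-52056821, minus strand: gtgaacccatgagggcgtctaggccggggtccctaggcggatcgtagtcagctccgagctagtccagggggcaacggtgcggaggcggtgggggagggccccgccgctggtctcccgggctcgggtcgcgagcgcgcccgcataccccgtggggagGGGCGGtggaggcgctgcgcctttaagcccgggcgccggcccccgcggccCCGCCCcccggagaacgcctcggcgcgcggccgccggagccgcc
DUSP1, chr5:172771196-172771445, minus strand: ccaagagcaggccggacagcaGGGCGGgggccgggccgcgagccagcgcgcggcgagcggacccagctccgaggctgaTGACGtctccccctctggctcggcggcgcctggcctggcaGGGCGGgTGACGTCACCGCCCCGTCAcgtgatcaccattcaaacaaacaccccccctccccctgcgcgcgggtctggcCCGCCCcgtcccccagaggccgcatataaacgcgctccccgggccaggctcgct

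The full cAMP response element TGACGTCA, a palindrome bound by CREB and related factors, was found in the windows of 2 members and in 1.85% of 35116 promoter windows. *DUSP8* had 2 copies, which began at positions -118 and -74 from the start site, and *DUSP1* had 1 copy, which began at position -125. Each full element holds the core TGACG on both strands, and this core was in windows of 3 members and in 24.6% of all windows. The GC box was in 9 of 10 member windows, those of 7 of the 8 members, all except *DUSP6*, and in 45% of all windows. Member windows held 55% to 78.3% GC, against a median of 58.7% over all windows. The part of GC content in these matches was not tested. *DUSP7* had 3 GC boxes and no TGACG, and 1 of these boxes lies after the start site. The RAS-responsive type letters CCCCAAACC were in no member window and in 0.729% of all windows. The shorter CCCACC was in 5 of 10 member windows, those of 4 members (*DUSP7*, *DUSP8*, *DUSP9* and *DUSP16*), and in 35.6% of all windows. The AP-1 letters TGACTCA and their reverse complement TGAGTCA were in no member window and in 4.95% of all windows. These are matches of letters in both strands of the windows, and binding was not measured here.

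Among the inducible nuclear members (*DUSP1*, *DUSP2*, *DUSP4* and *DUSP5*), 0 of 4 were called by edgeR, 2 had an unadjusted p below 0.05, and DESeq2 called 1. The same shares over all genes were 3.38%, 34.1% and 7.05%. The median log2 fold change of these 4 members was 0.29, and -0.02 with the GC and length trend removed. *DUSP1*, an immediate-early gene whose product acts on p38, JNK and ERK, stood at 8.73, 13.6 and 11.6 CPM in the sh-control libraries against 18.2, 21.4 and 19.5 CPM in those of sh-*RREB1*. The groups did not overlap, and sh-control replicate 1 was again the lowest library. The log2 fold change was 0.80 (SE 0.19, 95% CI 0.37-1.23, edgeR adjusted p = 0.0216), which did not pass.

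*DUSP2*, a nuclear phosphatase best known from activated leukocytes, had 3, 8 and 8 reads in the sh-control libraries against 14, 49 and 11 reads in those of sh-*RREB1*. The levels were 0.13, 0.294 and 0.249 CPM against 0.564, 1.88 and 0.872 CPM. The groups did not overlap, and sh-*RREB1* replicate 2 alone held 49 of the 74 reads of its group. The log2 fold change of 2.28 (SE 0.54, 95% CI 1.05-3.50) had an adjusted p of 0.0213 by edgeR and 0.00237 by DESeq2, and became 1.57 (adjusted p = 0.0733) without sh-*RREB1* replicate 2. That library also held the highest level of 6 of 6 fibroblast markers, which summed to 18.2 CPM there, to 5.96 and 3.73 CPM in the other sh-*RREB1* libraries and to 4.34-4.96 CPM in sh-control. *COL1A2* had no reads in any sh-control library, and 0, 103 and 1 reads in sh-*RREB1* replicates 1, 2 and 3. Leukocyte markers, of which *CD3E* had no reads in any library and 2 of 5 were tested, summed to 0.912-1.37 CPM in sh-control and 0.872-1.45 CPM in sh-*RREB1*. Endothelial markers, of which 2 of 3 were tested, summed to 0.261-0.374 CPM and 0.159-0.574 CPM. The part of the fibroblast markers in the *DUSP2* level was not tested.

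*DUSP5*, which encodes a nuclear phosphatase specific for ERK, was the member whose sh-*RREB1* libraries all lay below sh-control. It stood at 5.78, 5.37 and 5.42 CPM in the sh-control libraries against 4.15, 5.02 and 4.44 CPM in those of sh-*RREB1*. The gap between the groups was small, and the log2 fold change of -0.28 (SE 0.17, 95% CI -0.67 to 0.11, edgeR adjusted p = 0.291) did not pass. *DUSP4*, which encodes a nuclear phosphatase of ERK and JNK, stood at 1.78, 1.36 and 1.71 CPM against 1.49, 1.38 and 1.27 CPM. The groups overlapped, since sh-control replicate 2 lay below 2 of the sh-*RREB1* libraries. Its log2 fold change was -0.22 (SE 0.23, 95% CI -0.74 to 0.30, edgeR adjusted p = 0.555).

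Of the cytoplasmic members that prefer ERK (*DUSP6*, *DUSP7* and *DUSP9*), *DUSP7* was called, and the median log2 fold change was 0.82. With the GC and length trend removed, the median turned to -0.59 and 0 of 3 were called by edgeR, beside 3.0% of all genes. On the counts as deposited 1 of 3 had an unadjusted p below 0.05 (34.1% of all genes) and DESeq2 called 1 (7.05% of all genes). *DUSP9*, an X-linked gene needed in the placenta, stood at 2.30, 7.29 and 8.20 CPM in the sh-control libraries against 9.83, 10.8 and 10.9 CPM in those of sh-*RREB1*. The groups did not overlap, and sh-control replicate 1 lay far below the other two controls. The log2 fold change was 0.82 (SE 0.38, 95% CI -0.05 to 1.68, edgeR adjusted p = 0.167) with all libraries and 0.41 (adjusted p = 0.0797) without sh-control replicate 1. Its direction turned with the GC and length trend removed, to -0.59 (adjusted p = 0.0151).

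*DUSP6*, which encodes the ERK-specific feedback phosphatase, had the lowest mean level per length over the 6 libraries, although in sh-control alone *DUSP2* and *DUSP8* were lower. It had 12, 16 and 20 reads in the sh-control libraries against 5, 17 and 1 reads in those of sh-*RREB1*, or 0.521, 0.589 and 0.623 CPM against 0.201, 0.651 and 0.0793 CPM. In sh-*RREB1*, replicate 2 lay above every control while replicates 1 and 3 lay below, and the single read of replicate 3 is under the 0.238 CPM that 3 reads would give there. The log2 fold change was -0.73 (SE 0.55, 95% CI -1.97 to 0.51, edgeR adjusted p = 0.388). Without sh-*RREB1* replicate 2, the library with the high fibroblast markers, it was -1.85 (adjusted p = 0.0539), and without sh-*RREB1* replicate 1 it was -0.42 (adjusted p = 0.67). The part of those markers in the *DUSP6* level was not tested.

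All 3 members that prefer JNK and p38 (*DUSP8*, *DUSP10* and *DUSP16*) had sh-*RREB1* libraries above every sh-control library, as did 21.0% of all genes, and *DUSP8* was called. Their median log2 fold change was 0.71, and 0.76 with the GC and length trend removed. *DUSP16*, which encodes a phosphatase of JNK, stood at 37.1, 41.0 and 40.3 CPM in the sh-control libraries against 51.7, 73.7 and 68.5 CPM in those of sh-*RREB1*. The controls were tightly grouped and sh-*RREB1* replicate 1 was the lowest of its group. The log2 fold change was 0.71 (SE 0.15, 95% CI 0.37-1.06, edgeR adjusted p = 0.0148). *DUSP10*, which encodes a phosphatase of JNK and p38, stood at 5.08, 5.89 and 6.70 CPM against 8.18, 9.15 and 7.22 CPM. Its groups were close to each other without overlapping, and the log2 fold change of 0.48 (SE 0.18, 95% CI 0.06-0.89, edgeR adjusted p = 0.104) did not pass. With an adjusted p below 0.05 and no minimum fold, 5 of the 10 members passed (*DUSP1*, *DUSP2*, *DUSP7*, *DUSP8* and *DUSP16*), as did 19.3% of all genes.

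**Figure D2:**
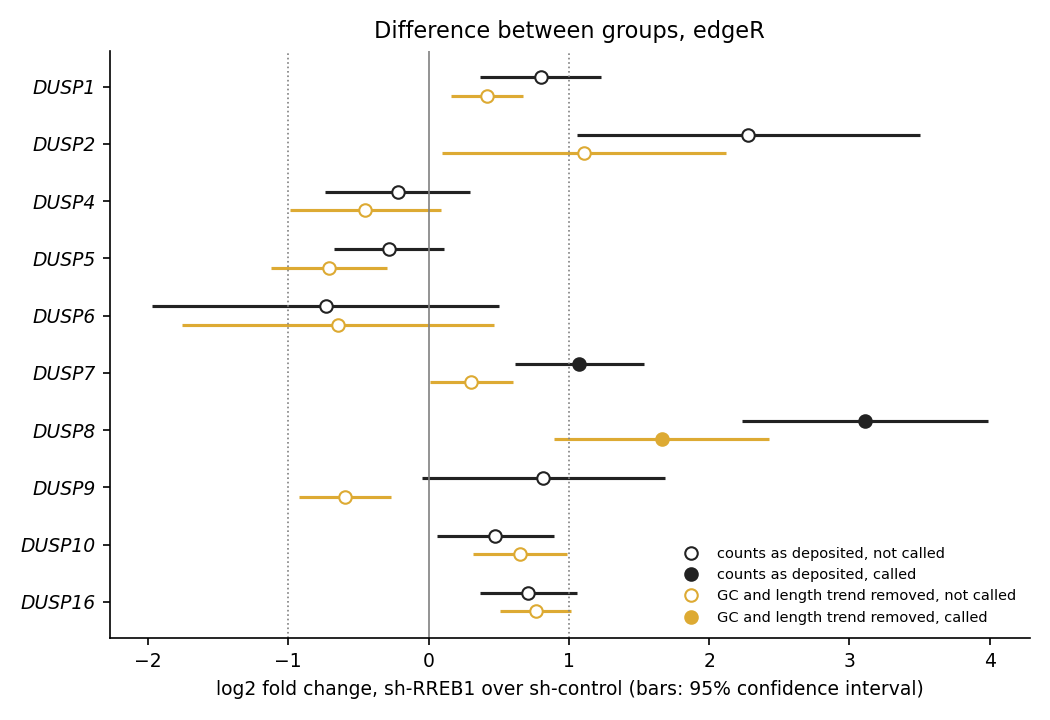
Log2 fold change of each member, sh-*RREB1* over sh-control (x axis), with 95% confidence intervals, from the edgeR fit on the counts as deposited and from the fit with the trend of GC content and length removed. *DUSP8* is at 3.11 in the first and 1.66 in the second, and *DUSP9* changes from 0.82 to -0.59.

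The fold changes of all genes followed the GC content of their exons. Among 14333 expressed genes, Spearman's rho between GC content and log2 fold change was 0.59. The decile of genes with the lowest GC content (26.7-38.3%) had a median log2 fold change of -0.23 and the decile with the highest (59.7-73.8%) had 1.11. In that highest decile, sh-control replicate 1 alone lay below the other controls by a median log2 difference of -1.09. The members ranged from 44.6% GC in *DUSP10* to 66.3% in *DUSP8*, with a Pearson's r of 0.69 and a Spearman's rho of 0.72 between GC content and log2 fold change. This is a description of 10 genes measured in the same 6 libraries.

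**Figure D3:**
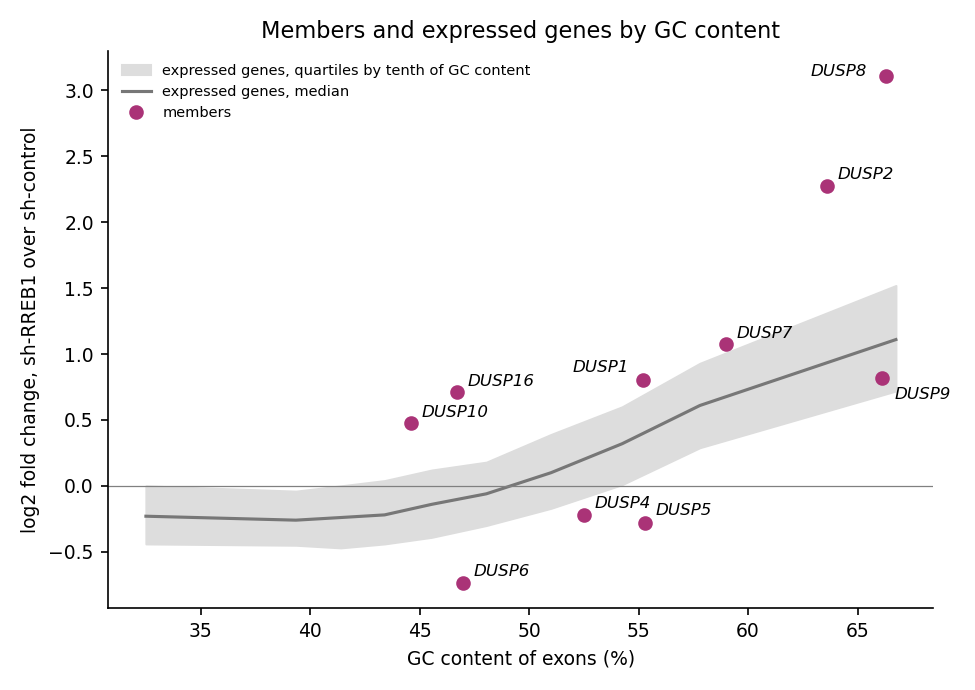
Log2 fold change, sh-*RREB1* over sh-control (y axis), against the GC content of exons in percent (x axis), for the 10 members beside the median of each decile of 14333 expressed genes. *DUSP8* lies 2.0 above the median of its decile, while *DUSP9*, with nearly the same GC content, lies 0.29 below it.

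Set beside the median of genes with similar GC content, *DUSP8* (66.3% GC) lay higher by 2.0 on the log2 scale, *DUSP2* (63.6%) by 1.17, *DUSP16* (46.7%) by 0.85, *DUSP10* (44.6%) by 0.62, *DUSP1* (55.2%) by 0.48 and *DUSP7* (59%) by 0.47. The other 4 members lay below their medians. The differences were -0.29 in *DUSP9* (66.1% GC), -0.32 in *DUSP4* (52.5%), -0.60 in *DUSP5* (55.3%) and -0.67 in *DUSP6* (47%). *DUSP16* and *DUSP10* are thus the members with positive fold changes whose GC neighbours were lower in sh-*RREB1*.

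Removing the GC and length trend from each library before the edgeR fit left 1 member called, *DUSP8*, with 3.0% of all genes called and 1.81% called higher. Its log2 fold change was 1.66 (95% CI 0.90-2.43, adjusted p = 0.00593). *DUSP7* had 0.31 (adjusted p = 0.133) and *DUSP2* 1.11 (adjusted p = 0.112). *DUSP9* changed sign to -0.59 (95% CI -0.92 to -0.27, adjusted p = 0.0151), without being called. *DUSP16* had 0.76 at an adjusted p of 0.000948, under the minimum fold, and *DUSP10* had 0.65 at 0.0107. *DUSP5* had -0.71 (adjusted p = 0.0198), *DUSP1* 0.42 (0.0242), *DUSP4* -0.45 (0.223) and *DUSP6* -0.65 (0.412). In this fit 6 members were above 0, and the median was 0.36.

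Within sh-control, 8 of 10 members had their lowest level in replicate 1, and the share over all genes was not counted. Among expressed genes, the median log2 difference of that library from the other controls was 0.25 in GC decile 1. In GC deciles 8, 9 and 10 it was -0.45, -0.72 and -1.09. Of the members, the same difference was -1.75 in *DUSP9*, -1.34 in *DUSP8*, -1.06 in *DUSP2*, -0.58 in *DUSP7* and -0.53 in *DUSP1*. The difference was -0.13 in *DUSP16* and 0.21 in *DUSP4*. Over the members this difference had a Spearman's rho of -0.72 with GC content (n = 10, a description). Within sh-*RREB1*, 8 of 10 members had their highest level in replicate 2, and the share over all genes was again not counted.

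**Figure D4:**
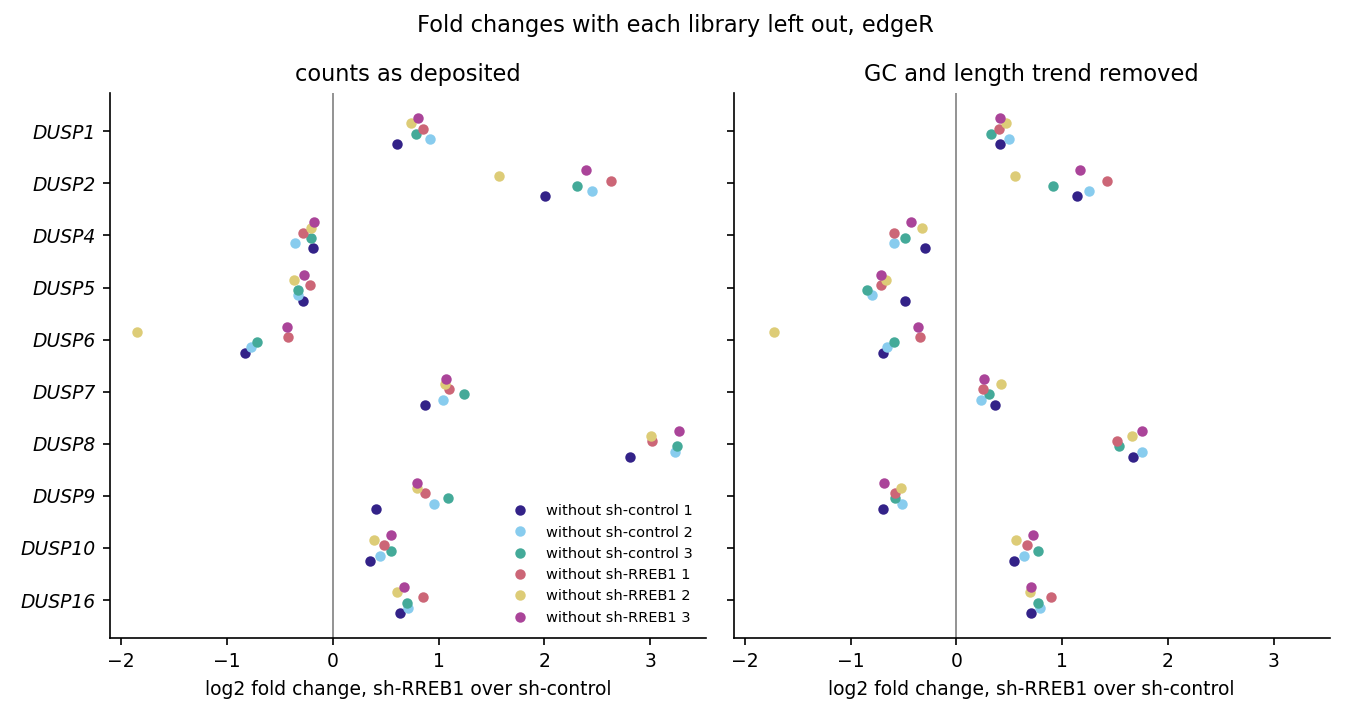
Log2 fold change of each member, sh-*RREB1* over sh-control (x axis), with each of the 6 libraries left out in turn (1 point per omission), on counts as deposited (left) and with the GC and length trend removed (right). *DUSP8* stays at 2.81-3.27 on the left and 1.52-1.76 on the right, and the point of *DUSP6* without sh-*RREB1* replicate 2 stands apart at -1.85.

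Levels of different members were compared as reads per kilobase of exon at the scale of CPM (RPKM), that is CPM divided by the exonic length in kilobases, 1929 bases in *DUSP2* to 7273 bases in *DUSP4*. Over the 6 libraries *DUSP1* had the highest mean level at 7.71 RPKM and *DUSP16* followed at 7.30 RPKM, with overlapping ranges. *DUSP16* ranged from 5.20 to 10.3 RPKM and did not overlap *DUSP9*, the next in order, which ranged from 0.832 to 3.95 RPKM. *DUSP9* (mean 2.97 RPKM), *DUSP10* (2.49), *DUSP5* (1.98) and *DUSP7* (1.92) formed a middle group in which each range overlapped the next. *DUSP2* (0.344 RPKM), *DUSP4* (0.206), *DUSP8* (0.175) and *DUSP6* (0.115) were at the bottom, again with overlapping neighbours. Within the groups the order of these 4 differed. By mean RPKM it ran *DUSP4* (0.223), *DUSP6* (0.150), *DUSP2* (0.117) and *DUSP8* (0.0353) in sh-control, and *DUSP2* (0.573), *DUSP8* (0.315), *DUSP4* (0.190) and *DUSP6* (0.0805) in sh-*RREB1*.

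**Figure D5:**
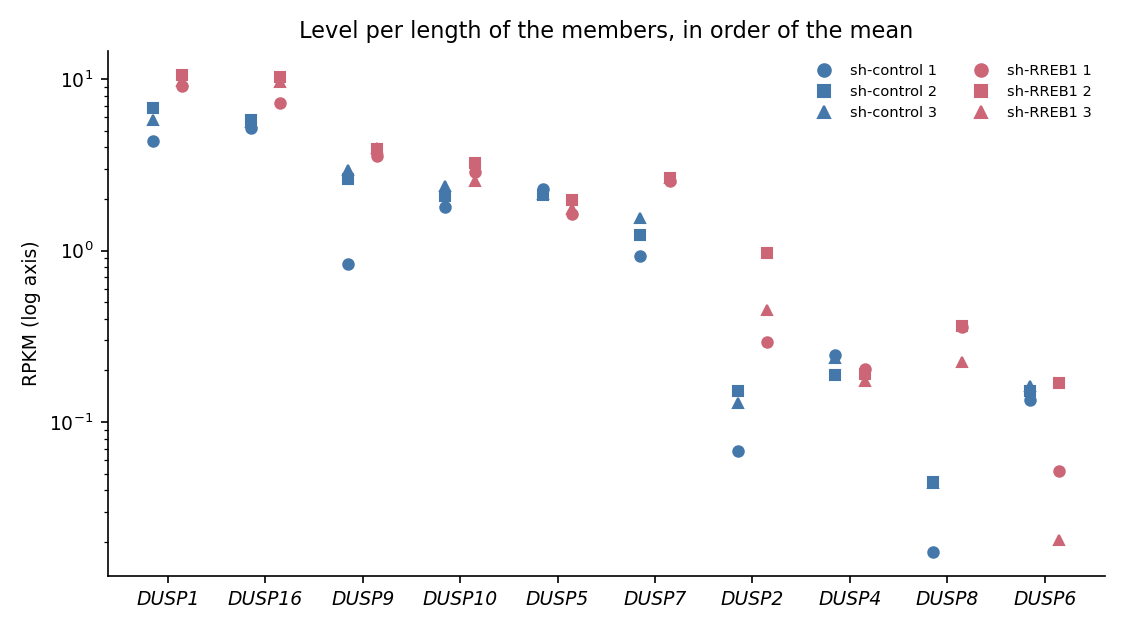
Level of each member in RPKM (log scale) in every library, in order of the mean over the 6 libraries. *DUSP1* and *DUSP16* lie above the other 8 members, whose highest value is the 3.95 RPKM of *DUSP9*.

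The summed level of the 10 members was 15.8, 21.1 and 21.0 RPKM in the sh-control libraries against 27.8, 34.4 and 31.1 RPKM in those of sh-*RREB1*. The groups did not overlap, and the means were 19.3 ± 3.01 and 31.1 ± 3.31 RPKM (SD, n = 3). *DUSP1* made up 29.0% ± 2.62 of the sum in sh-control and 31.5% ± 0.902 in sh-*RREB1*, and *DUSP16* made up 29.0% in both (SD 3.33 and 2.60). Of the middle members, the share of *DUSP5* was 11.5% ± 2.47 and 5.75% ± 0.121, and that of *DUSP7* was 6.35% ± 0.868 and 8.44% ± 0.706. *DUSP8*, with the largest fold change, supplied 0.177% ± 0.0575 and 1.02% ± 0.283 of the sum. Shares are descriptions with no test.

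MAP kinase genes, which include those of the ERK, JNK and p38 kinases that these enzymes act on, were measured in the same libraries. Of 14 MAP kinase genes edgeR called 1, higher, beside 3.38% of all genes called in either direction. An unadjusted p below 0.05 was seen in 6 of the 14, beside 34.1% of all genes. The median log2 fold change was -0.01, and -0.14 with the GC and length trend removed. DESeq2 called 2 of these 14, both higher, beside 7.05% of all genes. It added *MAPK12* (1.61, adjusted p = 0.00203), which is named after its value was seen. With the GC and length trend removed, *MAPK12* had 0.20 (edgeR adjusted p = 0.467). The called gene was *MAPK15*, an atypical MAP kinase, at 0.0869, 0.0368 and 0.0935 CPM in the sh-control libraries against 0.846, 0.919 and 0.714 CPM in those of sh-*RREB1* (log2 fold change 3.43, edgeR adjusted p = 0.00352). With the GC and length trend removed it had 2.21 (adjusted p = 0.0119) and was not called. Among the abundant genes of the list, *MAPK6*, an atypical MAP kinase, had a mean level of 20.9 RPKM, with a log2 fold change of -0.38 at an edgeR adjusted p of 0.0485. *MAPK14*, which encodes p38 alpha, had 19.0 RPKM and -0.47 (edgeR adjusted p = 0.0148), and neither was called.

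Of 15 atypical dual-specificity phosphatases, which lack the kinase-binding domain, 12 were tested. Of these, 0 were called by edgeR or by DESeq2 (3.38% and 7.05% of all genes). An unadjusted p below 0.05 was seen in 4 of the 12 (34.1% of all genes), and the median log2 fold change of the 12 was 0.20. *DUSP3* (21.1 RPKM, log2 fold change 0.30, adjusted p = 0.125), *DUSP12* (16.2 RPKM, -0.40, 0.107) and *DUSP14* (11.8 RPKM, 0.68, 0.0233) had the highest mean levels, each above that of *DUSP1*. Of 11 other phosphatases that act on MAP kinases or resemble those that do, 10 were tested and 0 were called by edgeR (3.38% of all genes). An unadjusted p below 0.05 was seen in 4 of them (34.1% of all genes), and DESeq2 called 1 of them (7.05% of all genes). Their median was -0.19, and *PPP2CA*, the catalytic subunit of protein phosphatase 2A, had the highest mean level at 24.1 RPKM (log2 fold change -0.34, adjusted p = 0.101).

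Genes induced by the same signals as several members gave 0 of 16 tested genes called higher and 1 called lower by edgeR (3.38% of all genes in either direction). An unadjusted p below 0.05 was seen in 6 of these 16 (34.1% of all genes). The median log2 fold change was 0.07, and -0.28 with the GC and length trend removed, where 2 genes were called lower, *ETV1* and *SPRED2*. The gene called lower was *ETV1*, an ETS factor, at a mean of 8.50 ± 0.805 CPM in sh-control and 2.01 ± 0.334 CPM in sh-*RREB1* (SD, n = 3, log2 fold change -2.10, edgeR adjusted p = 0.00164). *CCND1*, which encodes cyclin D1, had the highest mean level of the list at 3.92 RPKM with a log2 fold change of 0.51 (adjusted p = 0.0376). *SPRY2*, an inhibitor of receptor tyrosine kinase signalling, had 2.94 RPKM and -0.32 (adjusted p = 0.176). DESeq2 called 3 genes of this list (7.05% of all genes), all 3 lower: *ETV1* (-2.13), *ETV5* (-1.70) and *SPRED2* (-1.08). *ETV5* and *SPRED2* are named after their values were seen.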

How the data were processed

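Total RNA of HEK293T cells, 3 sh-control and 3 sh-*RREB1* libraries grouped by their labels, was prepared with a stranded kit. The authors aligned reads with STAR 2.4.2a to hg38 with Gencode release 25, and the deposited values are raw read counts of each gene, given unstranded and by strand. The sense-strand counts entered the fits. Reads assigned to no gene (8853232 to 13201426 per library) or to several genes (948964 to 2608366) stayed out of library sizes. In its mapped columns, the deposited merged table equalled the library tables in all 25400 of its rows with counts. The names of its sh-*RREB1* columns give the group but not the replicate. Symbols, lengths and GC content came from Gencode release 44. Identifiers that shared a symbol were reduced to the one with most reads, and genes with at least 10 reads in total were kept.

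edgeR 4.0.16 in R 4.3.3 (TMM scaling, quasi-likelihood test, condition as the only term) was the test, with Benjamini-Hochberg adjustment over 23462 genes. The GC and length trend of each library was fitted with splines of 5 degrees of freedom and used as an offset. The scripts were tested on simulated data. With the GC and length trend of these libraries simulated, the main fit called 580 genes that were unchanged. The fit with the offset called 1 such gene. With no trend simulated, the main fit called 2 such genes. The simulated trend was made by the same spline fit that the offset removes. The low count with the offset follows from that and does not show how well the offset suits the real libraries. Alternatives were DESeq2 1.42.0, other scalings and filters, both strands, the replicate number as a block, and the omission of each library. Intervals of ratios of reads, and the floor of 3 reads, cover counting error only. Named genes were *RREB1*, the 10 members, and, of each list, genes called plus at most the 3 with the highest mean level; markers named beside *RREB1*, *DUSP2* and *DUSP6* were chosen after their values were seen. A gene that this rule names is not reported here. Members and lists were chosen with earlier results of these data known.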

Additional observations from a re-analysis of the deposited data

How the results depend on the processing

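The number of genes called was 792 as reported, of which 79.7% were higher. It was 1654 with DESeq2, 1818 where 1 read in total sufficed, and 4536 with an adjusted p below 0.05 and no minimum fold. Omission of a library gave 8 to 1116 genes (8, 25 and 136 on omission of sh-*RREB1* replicates 3, 1 and 2, and 9 and 377 on omission of sh-control replicates 2 and 3), and 458 to 710 with the GC and length trend also removed (506 for sh-control replicate 2, 494 for sh-*RREB1* replicate 1). Without that trend 705 genes were called, 60.1% of them higher.

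Members called were 2 as reported and 1, *DUSP8*, with upper-quartile scaling, with both strands together and with the GC and length trend removed. Of all genes, these settings called 1033 of 23462, 591 of 28460 and 705 of 23462. Members called were 3 (*DUSP2*, *DUSP7* and *DUSP8*) where 1 read in total sufficed, beside 1818 of 33341 genes. They were 5 with an adjusted p below 0.05 and no minimum fold, and 0 to 1 over the omissions, with or without the trend. *DUSP9* turned from 0.82 to -0.59 with the trend removed, and to -0.69 to -0.51 when a library was also left out (-0.58 for sh-control replicate 3 and sh-*RREB1* replicate 1, -0.52 for sh-*RREB1* replicate 2). The cause was not tested. The other 9 members kept their sign in all 22 alternatives, and *RREB1* stayed at -0.44 to -0.08 without being called.

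Deviations of same-numbered libraries from their group means correlated at 0.50, 0.43 and -0.28. Replicates 1 and 2 of sh-control correlated best with their own number, and sh-control replicate 3 did not. Deviations from a group mean depend on each other, so these values cannot decide whether the replicate numbers pair the libraries. With the replicate number as a block 1698 genes and 3 members (*DUSP2*, *DUSP7* and *DUSP8*) were called. The replicate block with the GC and length trend removed left 1 member called, *DUSP8*, and gave *DUSP9* -0.57.

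*DUSP2*, *DUSP6* and *DUSP8*, and *MAPK15* of the MAP kinase genes, rest on few reads, and 3 reads equal 0.0935 to 0.238 CPM in these libraries.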

Other observations

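Reads on the strand opposite to the members were counted separately. *DUSP16* had 57, 39 and 53 such reads in the sh-control libraries against 45, 58 and 35 in those of sh-*RREB1*, 287 in all or 3.77% of its reads on both strands, and the groups overlapped. The other members had 0 or 1 such read each over the 6 libraries. Annotated transcripts that overlap members all lie on the opposite strand, and the counts used here are those of the members' own strand.

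Pseudogene copies of *DUSP5* and *DUSP8* had reads of their own. *DUSP8P5* had 12, 11 and 28 reads in the sh-control libraries against 19, 37 and 12 in those of sh-*RREB1*, beside 15 and 105 reads of *DUSP8* in all libraries of each group. *DUSP5P1* had 9, 19 and 19 reads against 24, 24 and 13. *DUSP8P1* had 1 read in all. Reads that map to several places are not counted, so levels of *DUSP5* and *DUSP8* are uncertain where a copy is near-identical.

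The spread between libraries of a group differed among the members. In sh-control the coefficient of variation of CPM was 53.5% for *DUSP9* and 43.7% for *DUSP8*, and 5.27% for *DUSP16* and 4% for *DUSP5*. In sh-*RREB1* it was 96.9% for *DUSP6* and 62.2% for *DUSP2*, and 2.5% for *DUSP7*.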
